A study of Danio rerio with 6 samples.

Results

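Genes for heterogeneous nuclear ribonucleoproteins (hnRNPs), serine- and arginine-rich (SR) proteins and the Tra2, Rbfox and Celf families were examined in whole embryos of the zebrafish (*Danio rerio*), 1 day after fertilisation. The members were chosen by row name in a table of raw read counts: names that begin with hnrnp, srsf and a digit, tra2a or tra2b, rbfox, or celf and a digit, with or without a copy suffix such as -2. This gave 67 of 47445 rows, which carry 52 different names. The rule itself uses no measured value, but the group, and within it the pair *hnrnpua* and *hnrnpub*, was proposed with the fold changes between the study's groups known. All values of that comparison below are therefore a description, and the p-values only place a row against the threshold used for the whole table.

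The study has 3 libraries from embryos labelled wild type, the controls, and 3 from embryos labelled as knocked down for *rapgef1b*, which encodes an exchange factor for Rap GTPases. Its title names neural crest specification and the presomitic mesoderm as the subject. All embryos were of the same age, RNA was depleted of ribosomal RNA, and the labels give neither the strain nor the knockdown reagent, nor whether controls received a control reagent or whether libraries came from separate clutches. P-values thus measure the spread between these libraries. In the libraries labelled knockdown, *rapgef1b* itself was not lower: it stood at 111, 113 and 110 CPM (counts scaled to a common library size with TMM factors) in the controls and at 144, 107 and 142 CPM in knockdown replicates 1, 2 and 3. By edgeR's quasi-likelihood test, *rapgef1b* had a log2 fold change of 0.24 (standard error 0.14, adjusted p-value 0.386). Higher and lower below mean higher and lower in the libraries so labelled, called the knockdown for short.

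Most protein-coding transcripts are spliced by the spliceosome, an assembly of small nuclear ribonucleoproteins (snRNPs) and many further proteins. SR proteins bind exons and mostly favour the use of nearby splice sites, while many hnRNPs coat the nascent transcript and often repress splice sites, and the balance between both classes shapes alternative splicing. Rbfox and Celf proteins bind short RNA motifs and steer the splicing programmes of muscle and nerve. Zebrafish keep many of these genes as pairs of paralogs, marked a and b. Counts per gene measure RNA abundance and say nothing of how transcripts were spliced.

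Total counts ran from 2042600 to 3809123 per library, and the 67 rows together took from 0.696% of them in knockdown replicate 1 to 0.857% in control replicate 1. Of the 67 rows, 53 passed the filter on low counts and were tested, covering 47 names. The other 14 had at most 21 counts in any library, and 5 of these had none. Among all 15607 tested rows, 4.29% were called at an adjusted p-value under 0.05, 2.01% higher and 2.27% lower, and 18.1% had an unadjusted p-value under 0.05. With library sizes alone in place of TMM factors, 59.3% of the calls were higher, against 46.9%.

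Taken over the 3 knockdown libraries together, the splicing factor genes as a group stood close to their control levels, with 1 large exception. Of the 53 tested rows, 27 had a higher and 26 a lower mean estimate, and their median log2 fold change was 0.007, beside 0.011 for all tested rows. The median was -0.10 without knockdown replicate 3. Single libraries differed in both groups. The median member lay -0.16, -0.0042 and 0.032 log2 units from its control mean in knockdown replicates 1, 2 and 3. In control replicates 1, 2 and 3 that median was 0.093, -0.021 and -0.076. In knockdown replicate 1, 27 of the 53 rows (50.9%) lay below all controls and 6 (11.3%) above. Over all tested rows those shares were 31.9% and 32.1%. The rows called lower were *hnrnpub* and *hnrnpul1l*, that is 2 of 53, beside 2.27% of all tested rows. No row was called higher by edgeR's quasi-likelihood test or by DESeq2. At an unadjusted edgeR p-value under 0.05 there were 8 of the 53 rows, 1 higher and 7 lower. Over all tested rows that share was 18.1%, which counts both directions and was not split. For 8 rows all knockdown values lay below all control values, and for 1 row all lay above. Among all tested rows the groups did not overlap in 23.2%, with the knockdown below in 11.9% and above in 11.3%. Standard errors of the log2 fold changes of the tested rows ran from 0.13 to 0.50.

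**Figure D1:**
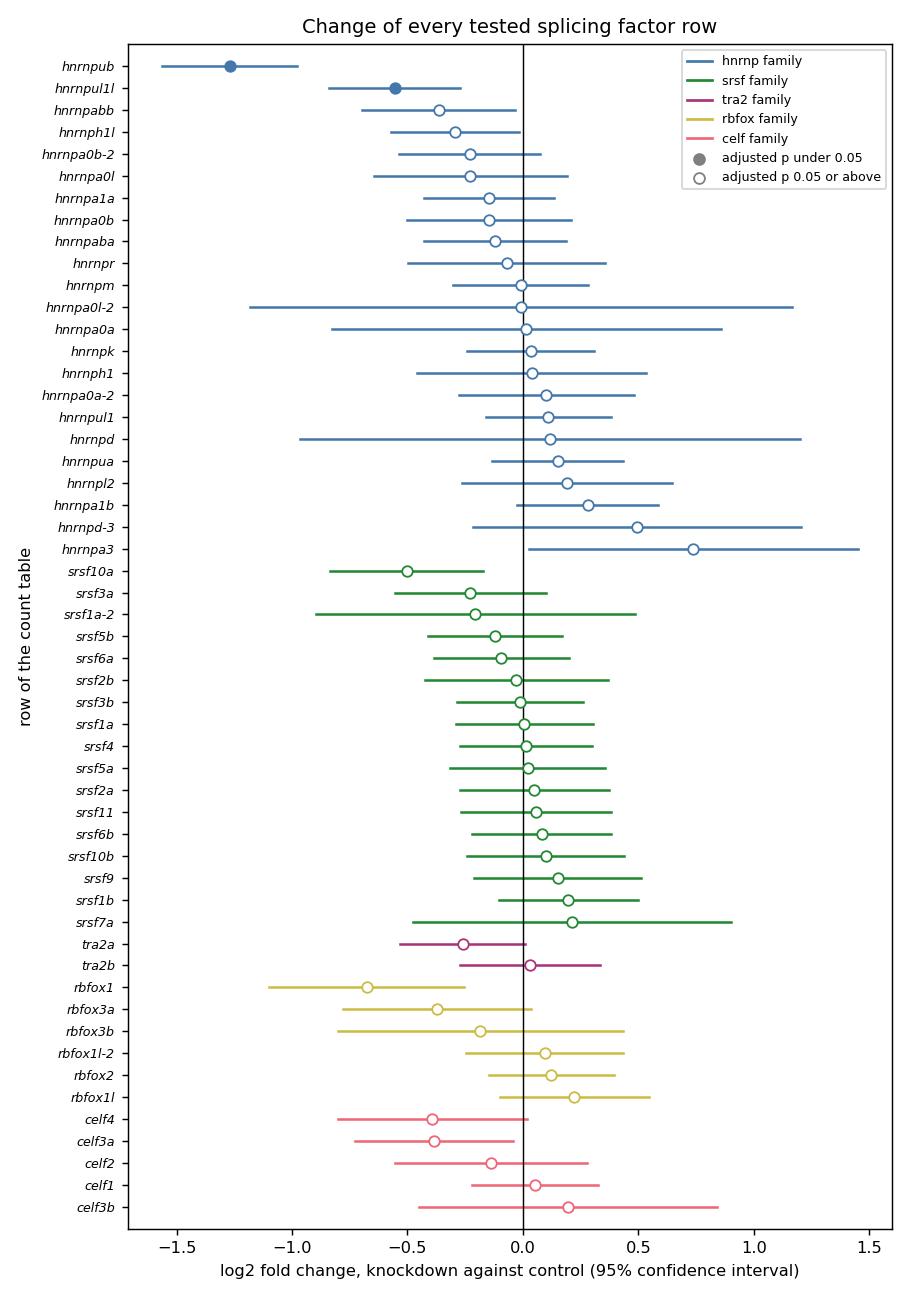
Log2 fold change (knockdown against control) of each of the 53 tested rows, with its 95% confidence interval, ordered within families; filled points had an adjusted p-value under 0.05. *hnrnpub* lies at -1.27, apart from the other rows, and *hnrnpul1l* at -0.56 is the other filled point.

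*hnrnpub* encodes an HNRNPU protein, known in mammals as a scaffold attachment factor that binds RNA and chromatin in the nucleus. It had 1760, 1334 and 839 counts in control replicates 1, 2 and 3, which is 474, 435 and 429 CPM. In knockdown replicates 1, 2 and 3 it had 427, 453 and 337 counts, or 189, 209 and 157 CPM. The groups did not overlap, and the gap between them was larger than the spread within either. The means were 446 ± 24.4 CPM in controls and 185 ± 25.97 CPM in the knockdown (SD, n = 3 each), so the knockdown mean was 41.5% of the control mean. EdgeR's quasi-likelihood test gave a log2 fold change of -1.27 (standard error 0.14, 95% confidence interval from -1.56 to -0.98) and an adjusted p-value of 3.23e-05. The call held in each of the 13 alternative fits, with log2 fold changes from -1.37 to -1.17. In whole embryos, fewer cells that express a gene and less RNA per cell cannot be told apart.

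Its paralog *hnrnpua* did not follow it. *hnrnpua* stood at 154, 151 and 161 CPM in the controls and at 155, 203 and 159 CPM in knockdown replicates 1, 2 and 3. Knockdown replicates 1 and 3 lay within the control range and replicate 2 above it. The estimate was 0.15 on the log2 scale, with a 95% confidence interval from -0.13 to 0.43. Both genes summed to 601 ± 23.3 CPM in controls and 357 ± 49.1 CPM in the knockdown (SD, n = 3 each). The 8 nearest tested neighbours of *hnrnpub* in RefSeq's GRCz12tu gene order, 4 on each side, had log2 fold changes from -0.55 to 0.99. By edgeR's quasi-likelihood test none of those neighbours was called. Of the 8, 2 had an unadjusted p-value under 0.05 by that test, beside 18.1% of all tested rows.

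*hnrnpul1l* is named after HNRNPUL1, a relative of HNRNPU with a role in the DNA damage response in mammals. It had 402, 353 and 326 CPM in the controls and 241, 269 and 227 CPM in knockdown replicates 1, 2 and 3. The groups did not overlap, and the knockdown mean was 68.1% of the control mean. By edgeR the log2 fold change was -0.56 (standard error 0.14, adjusted p-value 0.0235). Leaving out control replicate 1, control replicate 2 or knockdown replicate 3 ended this call, with adjusted p-values of 0.171, 0.111 and 0.0591 and log2 fold changes between -0.57 and -0.47. *hnrnpul1*, named here after its values were seen, had 239, 228 and 270 CPM in the controls and 256, 260 and 279 CPM in the knockdown. Those ranges overlapped, and the log2 fold change was 0.11 with a 95% confidence interval from -0.16 to 0.38.

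**Figure D2:**
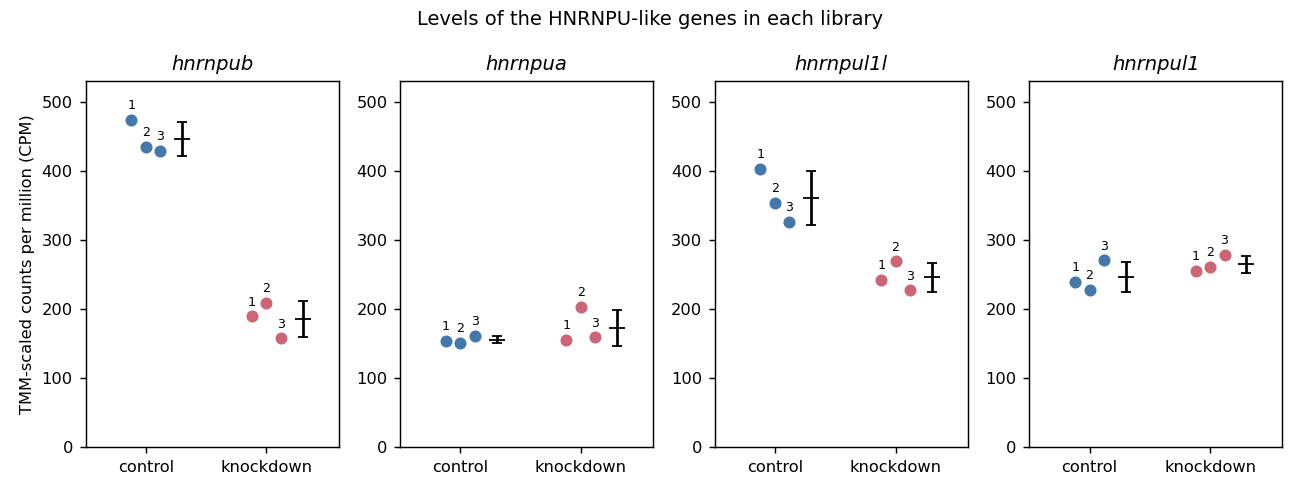
Level in CPM (counts scaled to a common library size) of *hnrnpub*, *hnrnpua*, *hnrnpul1l* and *hnrnpul1* in each library; numbers beside points are replicate numbers, and bars give the mean ± SD of 3 libraries. *hnrnpub* goes from 446 to 185 CPM and *hnrnpul1l* from 361 to 246 CPM, while the ranges of the other two overlap between groups.

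Among the remaining hnRNP genes, *hnrnpaba* and *hnrnpabb*, a pair encoding A/B-type hnRNPs, were together with *hnrnpub* the rows with the highest CPM in the controls, which is not corrected for gene length. *hnrnpaba* had 1342, 1148 and 1147 CPM in the controls and 937, 1253 and 1154 CPM in the knockdown, with a log2 fold change of -0.12. *hnrnpabb* had 512, 476 and 459 CPM in the controls and 284, 470 and 370 CPM in the knockdown. Both overlapped between groups. For *hnrnpabb* the log2 fold change was -0.36 (adjusted edgeR p-value 0.22), and without knockdown replicate 2 it was -0.57 and was called, at 0.0395. *hnrnph1l*, named after its values were seen and similar by name to the G-rich RNA binder HNRNPH1, had 166, 157 and 169 CPM in the controls and 115, 147 and 139 CPM in the knockdown, with no overlap. The estimate was -0.30, not called (adjusted edgeR p-value 0.24).

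The pair *hnrnpa1a* and *hnrnpa1b*, for the splicing repressor hnRNP A1, was also named after its values were seen. *hnrnpa1a* had 322, 308 and 318 CPM in the controls and 317, 245 and 294 CPM in the knockdown. *hnrnpa1b* had 332, 261 and 304 CPM in the controls and 298, 404 and 388 CPM in the knockdown. The groups overlapped for both genes, with log2 fold changes of -0.15 and 0.28 and neither called. *hnrnpa3* was the row with the highest estimate, 0.74 on the log2 scale with a 95% confidence interval from 0.027 to 1.45, and the 1 row whose knockdown values all lay above the controls. It rested on 21, 13 and 7 counts in the controls and 16, 17 and 18 counts in the knockdown, and its adjusted edgeR p-value was 0.254. *hnrnpd-3*, a row named for the AU-rich element binder hnRNP D, had 18 to 24 counts in the controls and 12 to 34 in the knockdown, with an estimate of 0.50 and overlapping groups. The other tested hnRNP rows had confidence intervals that included 0.

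Of the SR protein genes, 17 rows were tested and none was called by edgeR or by DESeq2. An unadjusted edgeR p-value under 0.05 was found for 1 of the 17, beside 18.1% of all tested rows. The median log2 fold change of the SR rows was 0.015, with 10 higher and 7 lower estimates. That 1 row was *srsf10a*, for an SR protein known in mammals as a splicing repressor when dephosphorylated. It had 50.1, 54.8 and 53.2 CPM in the controls and 40.7, 35.9 and 34.5 CPM in knockdown replicates 1, 2 and 3, with no overlap. EdgeR gave a log2 fold change of -0.50 (standard error 0.16, adjusted p-value 0.0802), and the adjusted p-value ran from 0.0649 to 0.28 over the 13 alternatives. Its paralog *srsf10b*, named after its values were seen, had 85.9, 99.2 and 88.0 CPM in the controls and 74.0, 94.9 and 124 CPM in the knockdown. Those ranges overlapped, and the direction of *srsf10b* turned without knockdown replicate 3, from 0.099 to -0.12 on the log2 scale.

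*srsf5a*, *srsf11* and *srsf2a* had the highest CPM among SR genes, again not corrected for length, at 386 ± 26.8, 283 ± 39.8 and 261 ± 31.0 CPM (SD, n = 3). *srsf2a* encodes the protein also called SC35. Their log2 fold changes were 0.020, 0.056 and 0.050, and each changed sign without knockdown replicate 3. *srsf3a*, for a small SR protein that also takes part in RNA export, had 107, 93.0 and 98.2 CPM in the controls and 73.5, 108 and 73.7 CPM in the knockdown, so that knockdown replicates 1 and 3 lay below all controls and replicate 2 above them. Its log2 fold change was -0.23. *srsf7a* and *srsf1a-2* had estimates of 0.21 and -0.21 at 7.60 and 16.6 CPM in the controls, and confidence intervals that included 0.

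The knockdown libraries differed among themselves in their SR genes. In knockdown replicate 1, 12 of the 17 SR rows lay below all 3 controls and 1 above. In replicate 2, 3 lay below and 7 above, and in replicate 3, 3 lay below and 9 above. Over all tested rows these shares were more even, at 31.9% below and 32.1% above in replicate 1, 29.3% on either side in replicate 2 and 34.2% below and 34.3% above in replicate 3. The median SR row lay -0.27, 0.042 and 0.19 log2 units from its control mean in knockdown replicates 1, 2 and 3, while the same median in the control libraries was between -0.082 and 0.093. *srsf5a*, for example, had 381, 362 and 415 CPM in the controls and 314, 349 and 510 CPM in knockdown replicates 1, 2 and 3. No test was made of these differences between replicates. For the hnRNP rows the corresponding medians were -0.011, -0.027 and 0.0097, beside 0.15, -0.052 and -0.054 in control replicates 1, 2 and 3. Of the 23 hnRNP rows, 9 lay below all controls and 2 above in knockdown replicate 1. In replicate 2, 6 hnRNP rows lay below and 5 above, and in replicate 3, 6 on either side. The Celf rows also differed among the knockdown libraries. Their medians over 5 rows were -0.16, 0.025 and -0.40, beside 0.067, -0.021 and -0.037 in control replicates 1, 2 and 3. Over 6 Rbfox rows the medians were 0.022, -0.049 and -0.18 in the knockdown. The Rbfox medians in control replicates 1, 2 and 3 were 0.099, 0.070 and -0.18, so that spread was not particular to the knockdown.

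Tra2 proteins are splicing activators that work with SR proteins. *tra2a* had 113, 125 and 115 CPM in the controls and 96.5, 104 and 94.7 CPM in the knockdown, all below the controls. *tra2a* had a log2 fold change of -0.26, with a 95% confidence interval from -0.53 to 0.0085 and an adjusted edgeR p-value of 0.295. *tra2b* had 88.9, 84.8 and 67.0 CPM in the controls and 85.0, 76.9 and 85.9 CPM in the knockdown. For *tra2b* the groups overlapped and the log2 fold change was 0.031, with a 95% confidence interval from -0.27 to 0.33.

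In the Rbfox family the lowest estimate was that of *rbfox1*, whose mammalian counterpart acts in neurons and muscle. *rbfox1* had 39.6, 41.1 and 35.3 CPM in the controls and 29.2, 27.2 and 16.3 CPM in knockdown replicates 1, 2 and 3. All knockdown values lay below the controls, with the lowest in replicate 3. Its adjusted edgeR p-value of 0.0647, at a log2 fold change of -0.68 (standard error 0.20), did not pass the threshold. The estimate ran from -0.83 without knockdown replicate 1, where it was called at 0.0398, to -0.47 without knockdown replicate 3, where the adjusted p-value was 0.259. It was also called without a filter on low counts, at 0.0191, with copy rows summed, at 0.0487, and with the replicate number as a block, at 0.0439. *rbfox3a*, a counterpart of the gene for the neuronal nuclear antigen NeuN, had 45.0, 46.0 and 33.8 CPM in the controls and 38.5, 35.0 and 23.8 CPM in the knockdown, with a log2 fold change of -0.37 and overlapping groups. *rbfox3b* had an estimate of -0.18 at 11.2 CPM in the controls, with overlapping groups.

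*rbfox1l* and *rbfox2* act in zebrafish muscle. *rbfox1l* had 165, 143 and 112 CPM in the controls and 177, 181 and 134 CPM in the knockdown, and its copy row *rbfox1l-2* had 103, 66.9 and 70.6 CPM and then 78.8, 93.5 and 86.3 CPM. The groups overlapped for both rows, with log2 fold changes of 0.22 and 0.094. *rbfox2* had 242, 227 and 222 CPM in the controls and 264, 227 and 262 CPM in the knockdown, with a log2 fold change of 0.12. None of these rows was called.

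The Celf family showed a like spread. *celf1*, whose mammalian counterpart is the CUG-binding protein, had the lowest coefficient of variation among controls of the 53 tested rows (1.76%). It had 287, 278 and 280 CPM in the controls and 275, 329 and 272 CPM in the knockdown. That is a log2 fold change of 0.053. *celf3a* and *celf4* belong to the Celf genes that are mainly expressed in the brain in mammals. *celf3a* had 79.2, 74.0 and 73.7 CPM in the controls and 67.8, 63.6 and 42.5 CPM in the knockdown, and *celf4* had 29.4, 28.0 and 24.0 CPM and then 19.9, 24.0 and 18.7 CPM. Their groups did not overlap, with log2 fold changes of -0.39 each and adjusted edgeR p-values of 0.212 and 0.30. *celf2* and *celf3b* had log2 fold changes of -0.14 and 0.20 with overlapping groups. No Celf row was called by edgeR or DESeq2. Of the 5 tested, 1 had an unadjusted edgeR p-value under 0.05, beside 18.1% of all tested rows. The rows *celf5a* and *celf5b* were too low to be tested, with at most 18 counts in a library.

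Cell type markers moved in the same libraries. For comparison, 51.2% of all tested rows had higher estimates, and edgeR called 2.27% of them lower. Of 25 neuron markers, 20 were tested, of which 17 had lower estimates and 2, *nefma* and *tubb5*, were called lower. The summed level of the list ran from 1442 to 1594 CPM in the controls and from 954 to 1278 CPM in the knockdown, and no marker with a row was at 0 throughout either group. For skeletal muscle, 19 of 20 tested markers had lower estimates and 5 were called lower, and the sum went from between 12798 and 19014 CPM to between 7583 and 12418 CPM. The row *ckma* was at 0 in all libraries. *mylpfa* and *pvalb2* were at 0 except for 1 count each in knockdown replicate 2. *tnnc2* was at 0 except for 2 counts in control replicate 1. Those rows were thus close to empty in both groups. Of the neural progenitor and proliferation markers, 11 of 17 had lower estimates and 2, *sox2* and *sox3*, were called lower. The progenitor markers *sox19a*, *sox19b*, *nes* and *fabp7a* were lower too, from -1.04 to -0.14. Proliferation markers were mixed. *mcm2*, *mcm3*, *mcm4*, *mcm6*, *mcm7* and *ccnb1* had the 6 higher estimates, from 0.025 to 0.16. *mcm5*, *pcna*, *mki67*, *top2a* and *ccna2* were lower, from -0.34 to -0.11. Sums of that list were 4358 to 5220 CPM in the controls and 3763 to 4608 CPM in the knockdown. The row *cdk1* was close to empty in both groups, with 1 count in control replicate 2 and 0 in every other library. Other rows of these lists were high, such as *ckmb* with a mean of 972 CPM and *mki67* with 892 CPM in the controls. An empty row alone does not show that its gene was silent, and the reason was not tested. The part of the marker shifts in the values of *hnrnpub*, *rbfox1*, *rbfox3a*, *celf3a* and *celf4* was not tested. Of the Rbfox rows, 3 had higher and 3 lower estimates, and of the Celf rows 2 and 3. Those higher included *rbfox1l* at 0.22, *rbfox1l-2* at 0.094, *rbfox2* at 0.12 and *celf3b* at 0.20.

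The balance within paralog pairs was followed as the log2 ratio of the a gene to the b gene in each library, in which the scaling of libraries cancels. Gene lengths do not cancel, so the ratio is read only as a change between groups. There were 13 pairs with both genes tested, and with 3 libraries against 3 an exact permutation test cannot go below p = 0.1, so no test was made. For *hnrnpua* over *hnrnpub* the log2 ratio was -1.62, -1.52 and -1.41 in the controls and -0.29, -0.042 and 0.013 in knockdown replicates 1, 2 and 3. It thus shifted by 1.41, and the shift stayed between 1.35 and 1.503 when any 1 library was left out. Over the other pairs the median size of the shift was 0.24.

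Groups also did not overlap for 3 further pairs, which makes 4 of 13. Of all tested rows taken singly, 23.2% did not overlap, and the share over pairs of other genes was not computed. The ratio of *celf3a* to *celf3b* shifted by -0.62, from 2.90 ± 0.47 to 2.27 ± 0.27 (SD, n = 3 each), and by -0.36 without control replicate 3. Its lowest control value was 2.54, in replicate 2, and its highest knockdown value was 2.47, in replicate 3. *celf3b* had only 12 to 42 counts per library. The ratio of *srsf10a* to *srsf10b* shifted by -0.57, from -0.78 ± 0.065 to -1.35 ± 0.49, with -0.848 in knockdown replicate 1, next to the lowest control at -0.846, and -1.82 in replicate 3. That shift was -0.34 without knockdown replicate 3. For *hnrnpaba* and *hnrnpabb* the shift was 0.26, from 1.33 ± 0.061 to 1.59 ± 0.16. The gap there was narrow too, with 1.39 in control replicate 1 and 1.41 in knockdown replicate 2. In the other pairs, among them *hnrnpa1a* and *hnrnpa1b* with a shift of -0.43 and *srsf2a* and *srsf2b* with 0.034, the groups overlapped. The number of pairs without overlap was 8 when knockdown replicate 2 was left out. Leaving out a library cannot make separate groups overlap, so this number could only stay or rise.

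**Figure D3:**
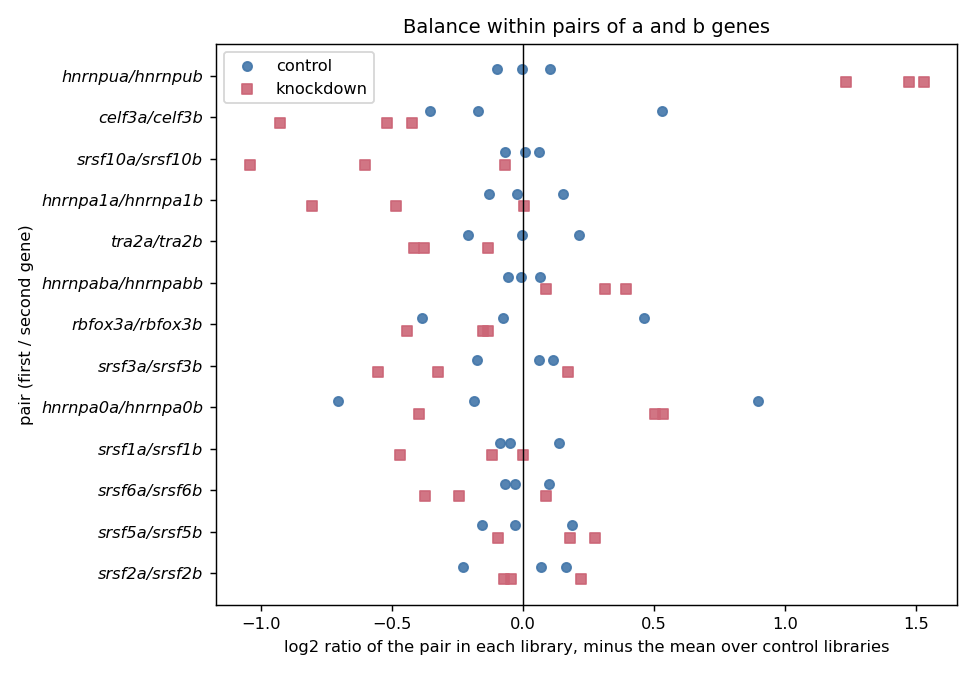
Log2 ratio of the first to the second gene of each of the 13 pairs in every library, minus the mean ratio of the 3 control libraries; circles are controls and squares are libraries labelled knockdown. The 3 knockdown points of *hnrnpua*/*hnrnpub* lie more than 1 above the control mean, and the points of most other pairs lie within 1 of it.

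Some of these names are spread over several rows. Of the 52 names, 12 have copy rows, 15 in all, of which 6 were tested. *hnrnpub*, *hnrnpua*, *hnrnpul1l*, *srsf10a* and *rbfox1* have none. The split between rows differed among libraries of the same group by more than counting error. The row *hnrnpa0a-2* held 78.7% of its name's counts in control replicate 1 (Wilson 95% interval 74.0% to 82.8%, which covers counting error only) and 49.7% in control replicate 3 (42.8% to 56.7%). The knockdown libraries were between those, at 72.1%, 70.0% and 60.5% in replicates 1, 2 and 3. In both groups this share was lowest in replicate 3. *hnrnpa0l-2* held 28.2%, 37.1% and 9.52% of its name's counts in control replicates 1, 2 and 3 and 33.8%, 33.8% and 13.6% in knockdown replicates 1, 2 and 3. The replicates numbered 3 were low in both groups. For *rbfox1l-2* the lowest share was in control replicate 2 (31.9%) and in knockdown replicate 1 (30.8%). For *srsf1a-2* the share was 23.5% in control replicate 1 and 9.64% in control replicate 2.

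For some of these names a single row varied more than the sum over rows, and for others not. The coefficient of variation among controls was 59.3% for the row *hnrnpa0a* and 22.6% for the sum over its rows, and it was 79.1% for the row *hnrnpd* and 16.7% for its sum. For *srsf1a* it was lower for the row, at 3.14%, than for the sum, at 11.4%, and for *rbfox1l* it was 19.1% and 19.8%. *hnrnpd* had 24, 32 and 2 counts in the controls, while the row *hnrnpd-3* had 24, 20 and 18. With rows summed, *hnrnpa0a*, *hnrnpa0b*, *hnrnpa0l*, *hnrnpd*, *srsf1a* and *rbfox1l* had log2 fold changes of 0.063, -0.19, -0.17, 0.16, -0.028 and 0.18, and none was called. Values of single rows of these names are uncertain, since counts can be split between copies.

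**Figure D4:**
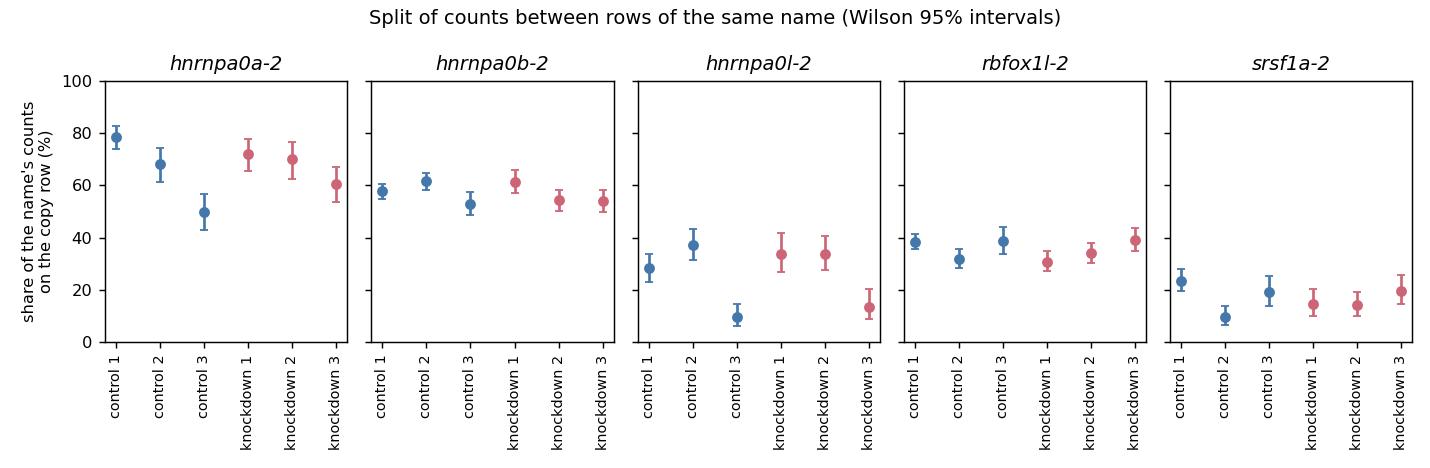
Percent of the counts of a name that fell on its copy row in each library, with Wilson 95% intervals, for *hnrnpa0a-2*, *hnrnpa0b-2*, *hnrnpa0l-2*, *rbfox1l-2* and *srsf1a-2*. The share differs between libraries of 1 group, from 49.7% to 78.7% among the controls for *hnrnpa0a-2*.

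The rest of the splicing machinery was read from 5 lists of 135 genes in all, of which 130 had a row and 114 were tested. Of these, edgeR called 6 higher, all subunits of the spliceosome, and neither edgeR nor DESeq2 called any lower. At an unadjusted edgeR p-value under 0.05 there were 3 lower and 21 higher. Over all tested rows edgeR called 2.01% higher and 2.27% lower, and 18.1% had an unadjusted p-value under 0.05. That last share counts both directions and was not split. Of all tested rows, 51.2% had higher estimates. The PRPF and other subunit list had 18 of 21 tested genes with higher estimates, 4 called higher, and a median log2 fold change of 0.25. Core snRNP and Sm proteins had a median of 0.20 over 17 tested genes and 1 call. The SF3 and U2AF factors, which help to recognise the region near the end of the intron, had a median of 0.046 over 16 and 1 call. Among SR protein kinases and importers and among other RNA-binding regulators, edgeR and DESeq2 called no gene. Their medians were -0.012 over 18 and -0.060 over 42 genes, with 0 and 4 genes at an unadjusted p-value under 0.05. The lowest estimate of the 5 lists was -1.09 for *raly*, an RNA-binding regulator named after its values were seen. It was not called (adjusted edgeR p-value 0.102), with 30 to 46 counts in the controls and 4 to 20 in the knockdown. Rows of *snrpd2*, *snrpd3*, *prpf4*, *dhx8* and *pnisr* had no count in any library, and those of *snrnp200*, *ddx23*, *fus* and *tardbp* at most 2. The reason was not tested, and these rows do not show that the genes were silent. Whether the lists differ from the hnRNP and SR rows was not tested.

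*sf3a2*, for a subunit of the U2 snRNP, had 82.2, 79.9 and 70.1 CPM in the controls and 106, 170 and 188 CPM in knockdown replicates 1, 2 and 3. *aqr*, for an intron-binding helicase, had 141, 118 and 133 CPM and then 210, 224 and 279 CPM. *eftud2*, for the GTPase of the U5 snRNP, had 168, 160 and 146 CPM and then 217, 330 and 301 CPM. In all of these the knockdown values lay above all controls, with the lowest knockdown value in replicate 1. *prpf31*, for a protein that joins the U4/U6 and U5 snRNPs, had 38.0, 34.9 and 29.2 CPM in the controls and 54.9, 77.4 and 65.3 CPM in the knockdown, again without overlap.

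Log2 fold changes were 0.99 for *sf3a2*, 0.86 for *aqr*, 0.83 for *eftud2* and 0.94 for *prpf31*, and their standard errors were from 0.14 to 0.17. Adjusted p-values by edgeR were 0.00281, 0.00123, 0.00282 and 0.00294, and these 4 calls held in each of the 13 alternatives. *lsm8*, for a subunit of the ring that binds U6 RNA, rose by 1.26 on the log2 scale from 10 to 30 counts in the controls and 27 to 37 in the knockdown, with an adjusted edgeR p-value of 0.0263. It has a copy row, so its level is uncertain, and leaving out control replicate 2, knockdown replicate 2 or knockdown replicate 3 ended its call, with adjusted p-values of 0.177, 0.0703 and 0.0746. The sixth, *prpf3*, a U4/U6 snRNP protein named after its values were seen, rose by 0.78 with an adjusted edgeR p-value of 0.0417. It also has a copy row, and its call was lost with DESeq2, at 0.105, and in 5 of the 6 fits without 1 library, with adjusted p-values up to 0.182.

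**Figure D5:**
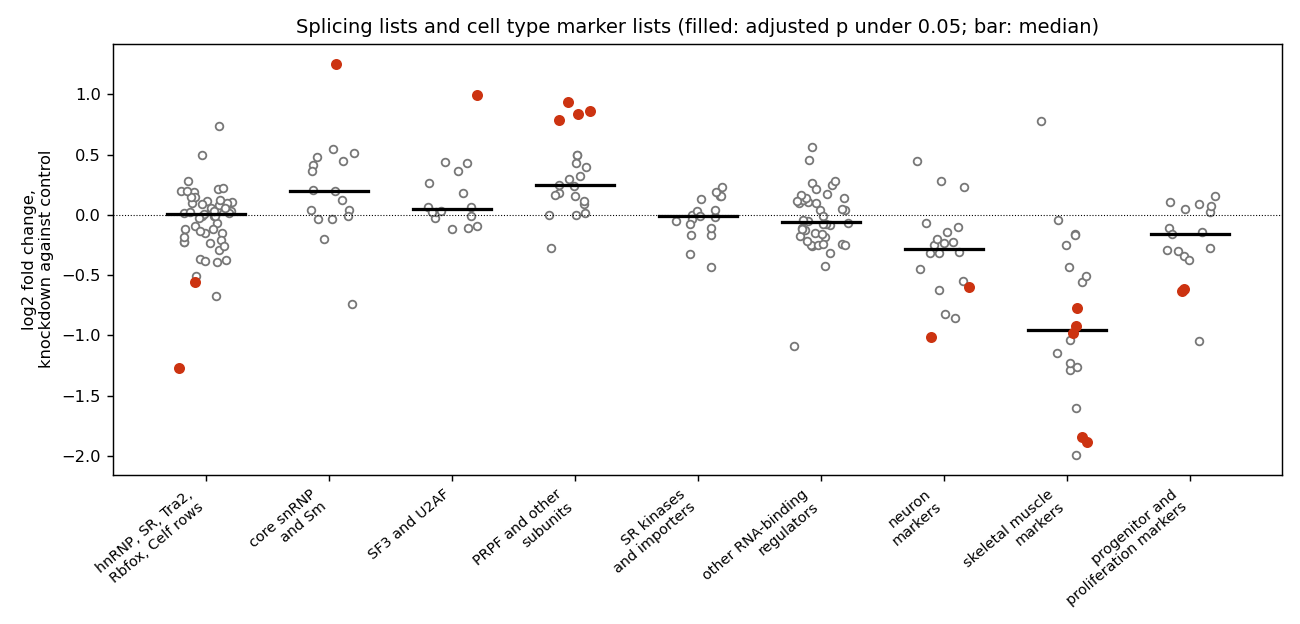
Log2 fold change (knockdown against control) of each tested row of the hnRNP, SR, Tra2, Rbfox and Celf families, of the 5 splicing lists and of the 3 marker lists; filled points had an adjusted p-value under 0.05 and bars are medians. Filled points in the first column are lower, and those in the spliceosome subunit lists are higher.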

How the data were processed

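The authors deposited 1 table of raw read counts with a row per name and a column per library, from ribosomal RNA-depleted total RNA, per the labels' protocols. The submitters' processing notes name FastQC, cutadapt, STAR, DESeq2 and the build GRCz11. Versions, the counting tool, the annotation and strand use are not given in the sources used here, so overlapping or antisense genes cannot be separated. Columns were matched to samples by library name. The description of the third control repeats the number of the second, and its title was used.

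Counts were filtered with edgeR's filterByExpr (minimum count 10, minimum total 15), scaled with TMM factors and tested over all rows with edgeR 4.0.16 in R 4.3.3 (glmQLFit with robust=TRUE, glmQLFTest, group as the only term), with Benjamini-Hochberg adjustment over 15607 rows. A standard error is the log2 fold change divided by the square root of F. Log2 CPM in pair ratios used a prior count of 2. Simulated data were used to test the count fit. Total counts from 2042600 to 3809123 limit precision for rows with few counts. Alternatives were DESeq2 1.42.0, other scaling, other filters, leaving out each library, a block for the replicate number, and summed copy rows. Figures used matplotlib 3.10.9.

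The members, the lists and the naming rule were chosen with earlier results of these data known. The naming rule takes called members, *hnrnpua* and *hnrnpub*, both genes of a pair with a call, per family the 4 largest changes and 3 highest levels, and up to 3 called genes per splicing list. Of the 52 names, 51 matched a RefSeq symbol or synonym. No sequences are shown.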

Additional observations from a re-analysis of the deposited data

How the results depend on the processing

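The number of called genes was 669, and 1010 without a filter on low counts. When 1 library was left out it ran from 219 to 914, members called lower from 1 to 3, pairs without overlap from 4 to 8, called genes of the splicing lists from 4 to 10 and the median log2 fold change of tested members from -0.10 to 0.043. The number of pairs without overlap could only stay or rise in those fits, so its range does not show stability. No alternative called a member higher. For the 39 genes followed under alternatives, 469 of 503 values kept their direction and side of the threshold. Of the rest, 12 lost a call, 5 gained one and 17 changed sign. Sign changes concerned uncalled genes. In the fits without 1 library, log2 fold changes ran from -0.050 to 0.096 for *celf1*, from -0.076 to 0.45 for *celf3b*, from -0.028 to 0.33 for *rbfox1l-2*, from -0.40 to 0.18 for *rbfox3b*, from -0.12 to 0.27 for *srsf10b*, from -0.12 to 0.19 for *srsf11*, from -0.56 to 0.24 for *srsf1a-2*, from -0.046 to 0.21 for *srsf2a*, from -0.22 to 0.16 for *srsf5a*, from -0.15 to 0.47 for *srsf7a* and from -0.076 to 0.11 for *tra2b*. Deviations of same-numbered libraries of both groups from their group means had correlations across genes of -0.014, 0.066 and 0.069 for numbers 1, 2 and 3. Between control and knockdown libraries of different number the correlations ran from -0.098 to 0.052. With 3 libraries per group, these values cannot tell whether same-numbered libraries shared a source. With the replicate block, 773 genes and 3 members were called, the third being *rbfox1*, and *srsf5a* went to -0.011. The causes were not tested.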
